A study of Mus musculus with 6 samples.

Results

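The genes described here are those encoded by the mitochondrial genome, chosen as every row of the gene tables whose symbol starts with mt-. The rule found 36 of the 25330 genes listed, of which 13 code for proteins, 2 for ribosomal RNAs and 21 for transfer RNAs, and mt-Tk was not analysed here. The series consists of 6 RNA-seq libraries of AML12 cells, a hepatocyte line from mouse. The sample titles name no gene knockout or overexpression. The 3 Control libraries came from cells kept at 21% O2 in full medium, and the 3 libraries labelled H6R2 came from cells held for 6 h at 1% O2 in medium without serum or glucose and then returned to oxygen for 2 h (hypoxia/reoxygenation, H/R). Oxygen and medium changed together, so that the effects of oxygen, serum and glucose cannot be told apart, and all libraries came from 1 cell line. Nothing in the labels says that the replicates were separate cultures, so the p-values measure the spread between these libraries, which may be technical.

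Mitochondrial DNA is a small circular genome whose genes lie almost end to end on both strands, called heavy and light. Each strand is transcribed as a long precursor by the polymerase Polrmt with the factor Tfam, and the precursor is cut mainly at the tRNAs that stand between the other genes. The protein genes encode core subunits of the respiratory chain (complexes I, III and IV) and of ATP synthase, and all other subunits, the mitochondrial ribosome proteins and the enzymes of mitochondrial gene expression are made from nuclear genes. Most mature mitochondrial mRNAs carry short poly(A) tails and are caught by mRNA kits, whereas rRNAs and tRNAs are caught poorly. The classes are therefore reported apart.

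Total counts per library ranged from 20438746 to 21854790. Of 10 hepatocyte markers, Apoa2, Fgb, Serpina1a and Cps1 had 18 to 61 counts in Control replicate 1 and at most 1 count in any other library, and Tat had at most 2 counts in any library. Alb had 132 to 542 counts in Control and 31 to 43 in H/R, and Ttr 181 to 423 and 16 to 51. Apoa1 had 106 to 193 in Control and 47 to 100 in H/R, and Apob 524 to 696 and 247 to 270. Hnf4a, which held most of the hepatocyte marker counts, was present throughout, with 2973 to 3209 counts in Control and 2035 to 2166 in H/R. The biliary marker Sox9 had 160 to 200 counts in Control and 896 to 1013 in H/R. The summed hepatocyte markers lay between 186 and 226 CPM (library-scaled counts) in Control and between 117 and 121 in H/R, while the biliary markers, carried by Krt7 and Krt19 with Epcam at 0, lay between 1320 and 1490 in Control and between 2440 and 2530 in H/R. Markers of macrophages, endothelium, stellate cells and blood summed to at most 9.93 CPM in any library. The macrophage sum, however, differed between the groups, from 3.0 to 3.43 CPM in Control and from 8.46 to 9.93 in H/R, with Cd68 at 16 to 22 counts in Control and 113 to 137 in H/R, while Adgre1 and Clec4f had at most 1 count. The part of these shifts in the results below was not tested. Less RNA per cell and fewer transcribing cells cannot be told apart in such bulk libraries.

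The sequences of several members have to be seen before their counts can be read, because they exist a second time in the nuclear genome. Chromosome 1 carries a copy of a mitochondrial segment that the annotation divides into pseudogene rows. In GENCODE M21 (GRCm38), Gm28661 is identical to mt-Co2 over 681 bases, Gm10925 to mt-Atp6 over 678 bases and Gm28437 to mt-Co3 over 783 bases. The first 120 bases of these 3 genes are shown because no read that lies within them can be assigned to 1 of the places. Capitals mark the first codon.
mt-Co2 (MT:7013-7132, plus strand): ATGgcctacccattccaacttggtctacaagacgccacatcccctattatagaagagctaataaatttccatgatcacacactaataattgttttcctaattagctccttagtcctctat
mt-Atp6 (MT:7927-8046, plus strand): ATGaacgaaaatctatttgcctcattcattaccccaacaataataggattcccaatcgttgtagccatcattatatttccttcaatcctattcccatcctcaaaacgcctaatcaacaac
mt-Co3 (MT:8607-8726, plus strand): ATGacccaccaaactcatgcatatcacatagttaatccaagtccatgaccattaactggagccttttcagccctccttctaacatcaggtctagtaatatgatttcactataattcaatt

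The same chromosome 1 segment holds copies of mt-Nd4l (Gm10222, identical over 294 bases), the first 876 bases of mt-Nd4 (Gm28439, identical), mt-Nd3 (Gm28438) and the last 492 bases of mt-Co1 (Gm29216). Gm28438 differs from mt-Nd3 at 1 of 345 bases, T3C, and Gm29216 differs from mt-Co1 only at its start, by T1056A, C1057T, A1059G, A1060G, C1062A and A1066T. Positions are counted from 1 at the first base of the mitochondrial gene, with the mitochondrial base first. The stretches are shown because these bases are what separates the rows, and capitals mark the differing bases.
mt-Nd3 (MT:9459-9518, plus strand): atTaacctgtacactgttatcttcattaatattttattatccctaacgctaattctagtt
Gm28438 (1:24613060-24613119, minus strand): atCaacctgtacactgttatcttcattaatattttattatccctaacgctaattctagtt
mt-Co1 (MT:6381-6440, plus strand): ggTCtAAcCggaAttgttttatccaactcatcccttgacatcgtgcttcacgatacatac
Gm29216 (1:24616138-24616197, minus strand): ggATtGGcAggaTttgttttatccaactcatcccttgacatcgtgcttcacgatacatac

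Chromosome 2 holds less similar copies of mt-Co1 (Gm13340, 97.61% identical over 1545 bases), mt-Nd2 (Gm13339, 96.67% over 510 bases) and mt-Co2 (Gm13341). Of all stretches of 100 bases in a gene, 99.5% of those in mt-Co2, 99.5% in mt-Atp6, 99.9% in mt-Co3, 97.6% in mt-Nd3 and 98.5% in mt-Nd4l occurred again in an annotated nuclear transcript. The share was 60.8% in mt-Nd4, 30.8% in mt-Co1 and 3.2% in mt-Nd2, and it was 0 in mt-Nd1, mt-Nd5, mt-Nd6, mt-Cytb, mt-Atp8 and both rRNAs. Only annotated transcripts were searched, and mt-Atp8 lies between copied genes in a place where the annotation gives chromosome 1 no transcript.

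The counts on the nuclear copies were set beside those on the mitochondrial rows. Whether reads on the copies came from mitochondrial transcripts was not tested. Of the counts on mt-Co2 and its copies together, 99.6% to 99.7% stood on the copies in each library, and the share was 99.6% to 99.7% for mt-Atp6 and 99.8% to 99.9% for mt-Co3. For mt-Nd3 it was 65.4% to 72.6% and for mt-Co1 15.5% to 19.2%. It was much smaller for mt-Nd4l, at 1.99% to 2.40%, and for mt-Nd4, at 0.418% to 0.595%, although mt-Nd4l is copied as fully as mt-Co2. The extent of copying therefore did not order the genes by the counts their copies held. Control and H/R libraries overlapped in this share for each of the 8 genes. In either group, the row named mt- held almost none of the summed counts of gene and copies for mt-Co2, mt-Atp6 and mt-Co3.

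**Figure D1:**
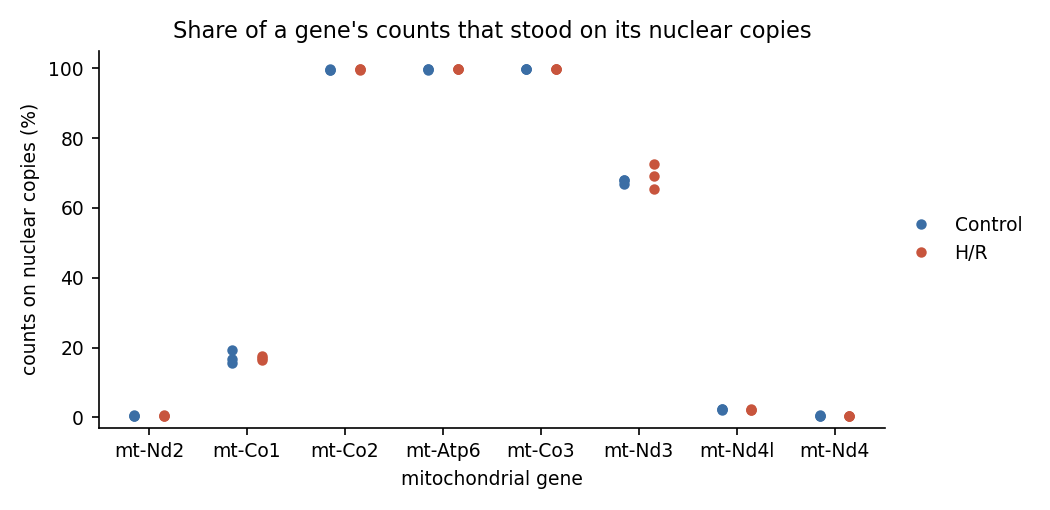
Percent of the counts on a mitochondrial gene and its nuclear copies that stood on the copies, by gene on the x axis, with 1 point for each of the 3 Control and 3 H/R libraries. The mt-Co2, mt-Atp6 and mt-Co3 points lie at or above 99.6%, those of mt-Nd3 between 65.4% and 72.6%, and those of mt-Nd4l and mt-Nd4 at or below 2.40%.

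Other features that the members share concern the ends of the genes. The first codon was ATG in most protein genes, and it was GTG in mt-Nd1, ATA in mt-Nd2, ATT in mt-Nd3 and ATC in mt-Nd5. The genes mt-Co3, mt-Nd4 and mt-Cytb end with 1 base past the last whole codon, and in such mRNAs the poly(A) tail is known to complete the stop codon. Their last 18 bases are shown beside those of mt-Nd1, which carries a whole stop codon, with the base past the last codon or the stop codon in capitals.
mt-Co3 (MT:9373-9390, plus strand): tttattgatgaggatctT
mt-Nd4 (MT:11527-11544, plus strand): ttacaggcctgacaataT
mt-Cytb (MT:15271-15288, plus strand): tactaaaattatatccaT
mt-Nd1 (MT:3690-3707, plus strand): gtaccaccatacataTAG

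Several genes also overlap. The mt-Atp8 and mt-Atp6 genes share 43 bases, mt-Nd4l and mt-Nd4 share 7 bases, and mt-Nd5 and mt-Nd6 share 14 bases on opposite strands. The strand setting of the counting is not given in the sources used here, so reads from the opposite strand cannot be told apart from those of mt-Nd6 and the light-strand tRNAs.

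The levels of the protein genes were compared per length, as RPKM (counts scaled to gene length and library total). On the rows named mt-, mt-Nd1, a membrane subunit of complex I, was highest in Control with 3327 ± 216 (SD, n = 3), followed by mt-Nd4l with 2643 ± 348 and mt-Co1, the catalytic subunit of cytochrome c oxidase (complex IV), with 2141 ± 47.6. The next were mt-Nd6 with 1819 ± 116, mt-Cytb, the only complex III subunit made in mitochondria, with 1393 ± 131, mt-Nd2 with 1167 ± 143, mt-Nd4 with 905.0 ± 16.9 and mt-Nd5 with 768.8 ± 48.3. Among these 8 genes only the neighbours mt-Cytb and mt-Nd2 overlapped across Control libraries. The remaining 5 rows, mt-Nd3, mt-Atp8, mt-Atp6, mt-Co2 and mt-Co3, were low, from 22.11 ± 4.66 for mt-Nd3 down to 2.426 ± 0.47 for mt-Co3.

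When counts on the copies were added to their mitochondrial gene, the order changed. In Control mt-Atp6, a membrane subunit of ATP synthase, became the highest at 3470 ± 51.6 RPKM, and mt-Co2, the complex IV subunit that takes electrons from cytochrome c, rose from 9.975 ± 1.89 to 2655 ± 305. The core complex IV subunit mt-Co3 rose from 2.426 ± 0.47 to 1527 ± 46.8. Only mt-Nd3, at 68.35 ± 15.7, and mt-Atp8, a small membrane subunit of ATP synthase, at 16.56 ± 4.38, stayed low. No counts could be added to mt-Atp8, since its place on chromosome 1 has no annotated transcript. How reads with several matches were counted is not given, so these 2 low values cannot be read as transcript levels. With copies added, the Control libraries of mt-Atp6 overlapped those of mt-Nd1, and mt-Nd4l, mt-Co2 and mt-Co1 overlapped as neighbours in the order.

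In H/R the first place was again held by mt-Atp6 with copies added, at 3621 ± 200 RPKM. mt-Co1 moved from the fifth place at 2583 ± 34.4 to the second at 3384 ± 121, and mt-Nd1 from the second at 3327 ± 216 to the fourth at 3151 ± 54.1. These places are by group mean. Across H/R libraries mt-Atp6 overlapped mt-Co1, mt-Co1 overlapped mt-Co2 and mt-Co2 overlapped mt-Nd1. The RPKM are levels per library total. The fold changes given below are scaled by TMM, a normalisation that sets the bulk of genes equal between libraries.

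**Figure D2:**
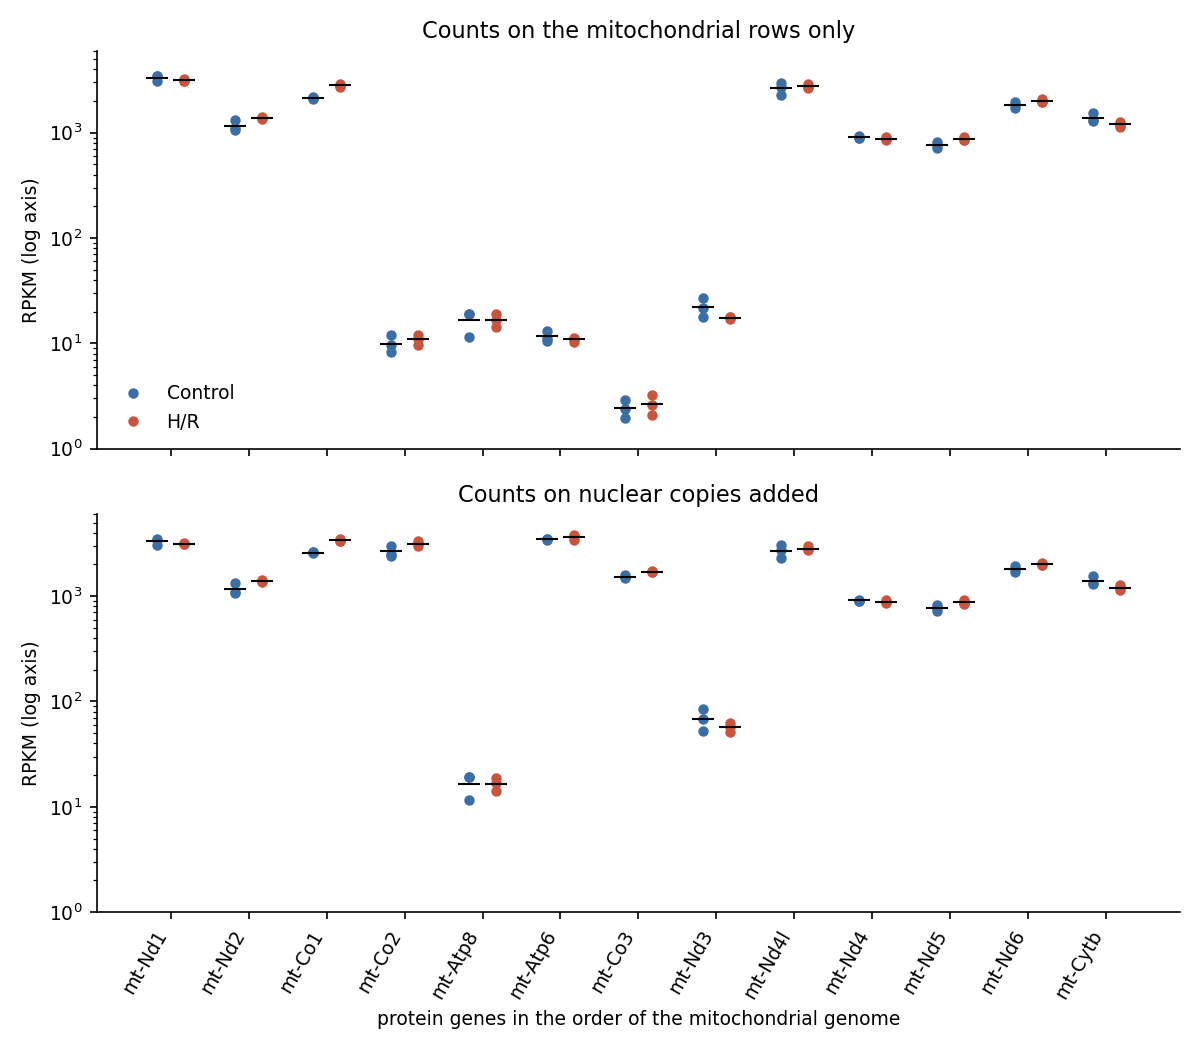
RPKM of the 13 mitochondrial protein genes on a log axis, in genome order on the x axis, with 1 point per library and a bar at the mean of each group of 3. The upper panel uses the rows named mt- only and the lower panel adds the counts on nuclear copies, which lifts the Control mean of mt-Co2 from 9.975 to 2655 RPKM and leaves mt-Atp8 at 16.56.

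The main comparison asked which mitochondrial transcripts differed between H/R and Control. On the mt- rows, 4 of 13 protein genes rose at an adjusted p under 0.05 in edgeR's quasi-likelihood test, and these were mt-Co1, mt-Nd2, mt-Nd5 and mt-Nd6. None fell and 9 did not pass. The 4 that rose make 30.8% of the protein genes, beside 31.0% of all 14020 genes tested that rose and 31.8% that fell, so the share was near the background. In either direction, 62.8% of all genes passed. None of the protein genes passed with at least 2-fold in edgeR, DESeq2 or limma-trend, also at an unadjusted p under 0.05, beside 8.52% of all genes in edgeR (4.25% higher and 4.27% lower). Scaling by library totals called 23.9% of all genes higher and 39.1% lower, and upper quartile scaling 26.3% and 36.8%, with 4 protein genes higher and 2 lower under each. The median log2 fold change of the protein genes was 0.17, with a range from -0.24 to 0.50, and that of all genes tested was -0.01. For the count of 0 that fell, an unadjusted p under 0.05 also gave 0 in edgeR and DESeq2, while limma-trend on log2(RPKM + 1) gave 1, mt-Cytb.

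mt-Co1 showed the largest fold of the protein genes on these rows. Its TMM-normalised counts were 70190, 67200 and 65320 in Control and 93390, 94260 and 98320 in H/R. All H/R libraries lay above all Control libraries, and the log2 fold change was 0.50 (SE 0.046, adjusted p = 1.56e-11, edgeR). With copies added it was 0.49 (SE 0.044), and the copy row Gm29216 alone gave 0.48 (SE 0.057). The groups for 4 protein genes did not overlap with H/R higher, beside 32.5% of all genes tested, and mt-Co1 led them. Across all genes, groups were apart with H/R lower in 33.5% and in either direction in 65.9%.

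The other 3 genes that rose code for complex I subunits. mt-Nd2, a membrane subunit of the proton-pumping arm, had normalised counts of 23650, 28350 and 22270 in Control and 31560, 30730 and 31610 in H/R (log2 fold change 0.34, SE 0.074, adjusted p = 0.0018, edgeR). mt-Nd5, another pumping subunit, had 29150, 30490 and 26320 in Control and 34220, 34450 and 36210 in H/R (0.29, SE 0.050, adjusted p = 6.77e-06, edgeR). mt-Nd6, the only protein gene whose mRNA is read from the light strand, had 19500, 20620 and 17760 in Control and 22430, 22500 and 23350 in H/R (0.24, SE 0.049, adjusted p = 8.13e-05, edgeR). In each of these genes all H/R libraries were above all Control libraries, and for mt-Nd2 Control replicate 2 stood nearest to H/R. The call of mt-Nd6 was lost in limma-trend on log2(RPKM + 1), at 0.14 with an adjusted p of 0.0816. Its counts cannot be told apart from reads of the opposite strand, as the strand setting is not given.

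The other complex I genes with high counts showed smaller differences that did not pass. mt-Nd1 had normalised counts of 67900, 68150 and 59140 in Control and 67960, 66020 and 64670 in H/R, and the groups overlapped (log2 fold change 0.03, SE 0.050, 95% interval of the fold 0.951 to 1.09, reversed in sign under library totals at -0.08). mt-Nd4 had 25440, 26110 and 24860 in Control and 26420, 25930 and 27170 in H/R (0.06, SE 0.045, and -0.05 under library totals). mt-Nd4l had 16570, 18040 and 13540 in Control and 17490, 17880 and 18710 in H/R (0.17, SE 0.11). Control replicate 3 was the lowest library of mt-Nd1 and mt-Nd4l. mt-Nd4l passed as higher without Control replicate 2, at 0.26 (adjusted p = 0.00598, edgeR), and at a fold of 0.17 also with no filter on low counts (adjusted p = 0.00737) and without robust dispersion (adjusted p = 0.0444).

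mt-Cytb was the one abundant protein gene with a negative log2 fold change. Its normalised counts were 30860, 36200 and 30600 in Control and 30190, 28660 and 31720 in H/R, so that the groups overlapped (-0.11, SE 0.058, adjusted p = 0.107, edgeR). It passed as lower under scaling by library totals, at -0.21 (adjusted p = 0.00685), under upper quartile scaling, at -0.18 (adjusted p = 0.0102), without Control replicate 1, at -0.15 (adjusted p = 0.0427), and without Control replicate 3, at -0.15 (adjusted p = 0.0289). The fold change of the median gene was -0.12 under library totals and -0.08 under upper quartile scaling, against -0.01 with TMM. Relative to that median mt-Cytb was therefore lower by a similar size under each of these scalings.

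The 5 low rows gave wide intervals. The normalised counts of mt-Co2 were 117.4, 168.7 and 131.8 in Control and 165.9, 145.6 and 178.9 in H/R (log2 fold change 0.23, SE 0.13), and this row passed only without Control replicate 2, at 0.39 (adjusted p = 0.0106, edgeR). mt-Nd3, a small membrane subunit of complex I, had 194.1, 155.1 and 123.3 in Control and 136.8, 135.9 and 127.9 in H/R (-0.24, SE 0.13). It passed as lower without Control replicate 3, at -0.39 (adjusted p = 0.0104), and under scaling by library totals, at -0.34 (adjusted p = 0.0242), and upper quartile scaling, at -0.31 (adjusted p = 0.044). The groups of both genes overlapped. The remaining folds were 0.11 (SE 0.19) for mt-Atp8, 0.01 (SE 0.11) for mt-Atp6 and 0.23 (SE 0.22) for mt-Co3, which had only 31.07 to 56.08 normalised counts.

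The result for these genes depended on where their counts were taken. With the copies added, 7 of 13 protein genes rose and 0 fell, beside 31.1% of 14010 genes that rose, and the median log2 fold change was still 0.17. In this fit, 62.9% of all genes passed in either direction, and 8.53% passed with at least 2-fold (4.25% higher and 4.28% lower), again with no protein gene at 2-fold. Again an unadjusted p under 0.05 gave 0 genes that fell in edgeR, and also in DESeq2. The 3 added calls were those of the genes whose summed counts of gene and copies lay almost wholly on the chromosome 1 rows. For mt-Co2 with copies the normalised counts were 35830, 42120 and 33370 in Control and 48170, 44740 and 49220 in H/R (log2 fold change 0.35, SE 0.077, adjusted p = 0.00228, edgeR). For mt-Co3 with copies they were 25610, 24360 and 23420 in Control and 29500, 29540 and 29400 in H/R (0.27, SE 0.046, adjusted p = 4.07e-06, edgeR). In both genes the groups were apart, and the 3 H/R libraries of mt-Co3 lay close together.

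The smallest of the added calls was that of mt-Atp6. With copies its normalised counts were 48140, 49160 and 47480 in Control and 55620, 50950 and 55850 in H/R (log2 fold change 0.17, SE 0.046, adjusted p = 0.0023, edgeR). All H/R libraries were above Control, with H6R2 replicate 2 the nearest. Under library totals the fold was 0.06 (adjusted p = 0.209), and under upper quartile scaling 0.09 (adjusted p = 0.0763), so this call was lost under both. That of mt-Co2 with copies was lost with a replicate block, at 0.36 (adjusted p = 0.0687). With copies added all 3 core subunits of complex IV had thus passed the test as higher, as had 3 of the 7 complex I subunits and 1 of the 2 ATP synthase subunits, whereas mt-Cytb of complex III had not. Whether the complexes differed from one another was not tested.

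**Figure D3:**
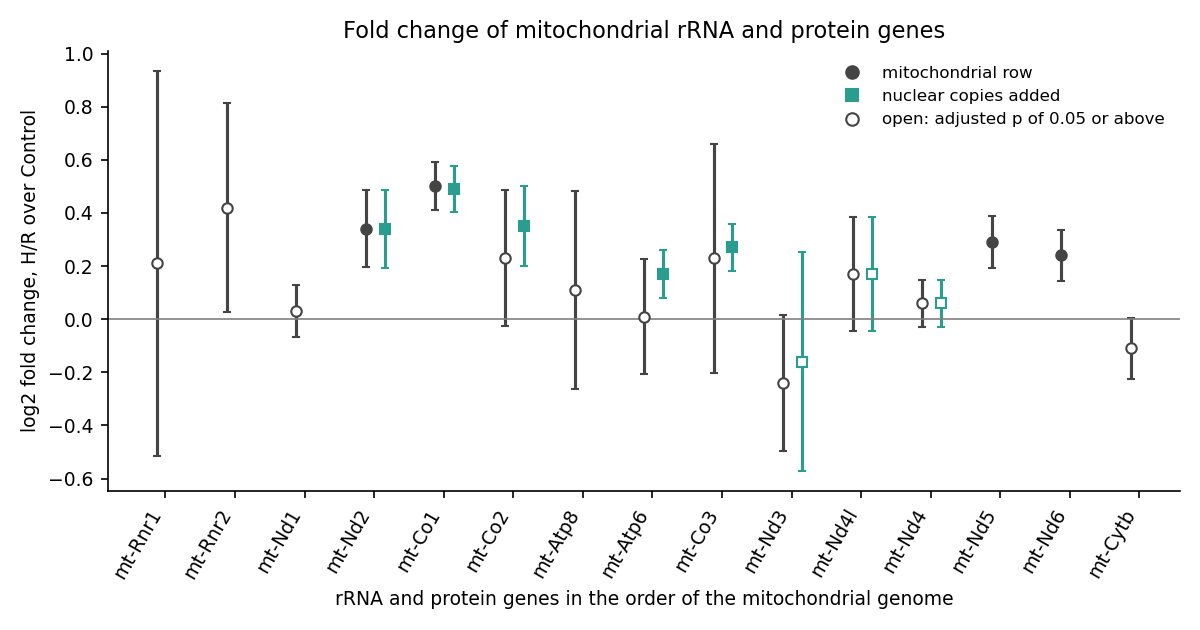
Log2 fold change of H/R over Control, with 95% intervals, for the 2 rRNA and 13 protein genes in genome order on the x axis. Circles use the mt- row, squares add the counts on nuclear copies, and filled symbols have an adjusted p under 0.05. mt-Co1 reaches 0.50 on its row and mt-Cytb lies at -0.11, while mt-Co2, mt-Atp6 and mt-Co3 pass only with copies added.

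The make-up of the mitochondrial protein counts within each library does not depend on how libraries are scaled against each other. On the mt- rows, mt-Co1 took 24.7%, 22.7% and 25.1% of these counts in Control and 28.8%, 29.4% and 29.6% in H/R. mt-Nd1 took 23.9%, 23.0% and 22.7% in Control and 21.0%, 20.6% and 19.5% in H/R. mt-Cytb took 10.9%, 12.2% and 11.8% in Control and 9.31%, 8.93% and 9.54% in H/R. For these 3 genes the groups were apart, with mt-Co1 taking a larger share in H/R and the others a smaller one. mt-Nd4 also took a smaller share, falling from 9.11% ± 0.38 to 8.13% ± 0.05.

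With copies added, the shares of mt-Co1 (20.2% ± 1.2 to 24.1% ± 0.3), mt-Nd1 (16.1% ± 0.57 to 13.9% ± 0.54), mt-Nd4 (6.34% ± 0.21 to 5.58% ± 0.026) and mt-Cytb (8.04% ± 0.46 to 6.33% ± 0.17) were apart in the same direction as on the rows, and so was the small share of mt-Nd3. The share of mt-Nd5 was apart on the rows, at 10.2% ± 0.11 against 10.7% ± 0.17, and overlapped with copies added. The other shares overlapped with copies added, mt-Co2 at 9.16% ± 0.64 against 9.93% ± 0.27 among them. As the shares sum to the whole, a gain of 1 gene lowers the others, and ratios of 2 genes were therefore taken as well.

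The counts of mt-Co1 over those of mt-Nd1, both on the heavy strand, gave ratios of 1.03, 0.986 and 1.10 in Control and 1.37, 1.43 and 1.52 in H/R. Those of mt-Co1 over mt-Cytb gave 2.27, 1.86 and 2.13 in Control and 3.09, 3.29 and 3.10 in H/R. The H/R libraries were the higher ones throughout and apart from Control. The ratio of mt-Nd2 to mt-Nd1, which are neighbours in the genome with only tRNAs between them, rose from 0.380 ± 0.034 to 0.473 ± 0.014, and that of mt-Nd5 to mt-Cytb from 0.882 ± 0.055 to 1.16 ± 0.037. These ratios were chosen with earlier results known and are given without a test. No copy of mt-Nd1, mt-Nd5 or mt-Cytb was found, and that of mt-Nd2 held at most 0.573% of its counts.

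**Figure D4:**
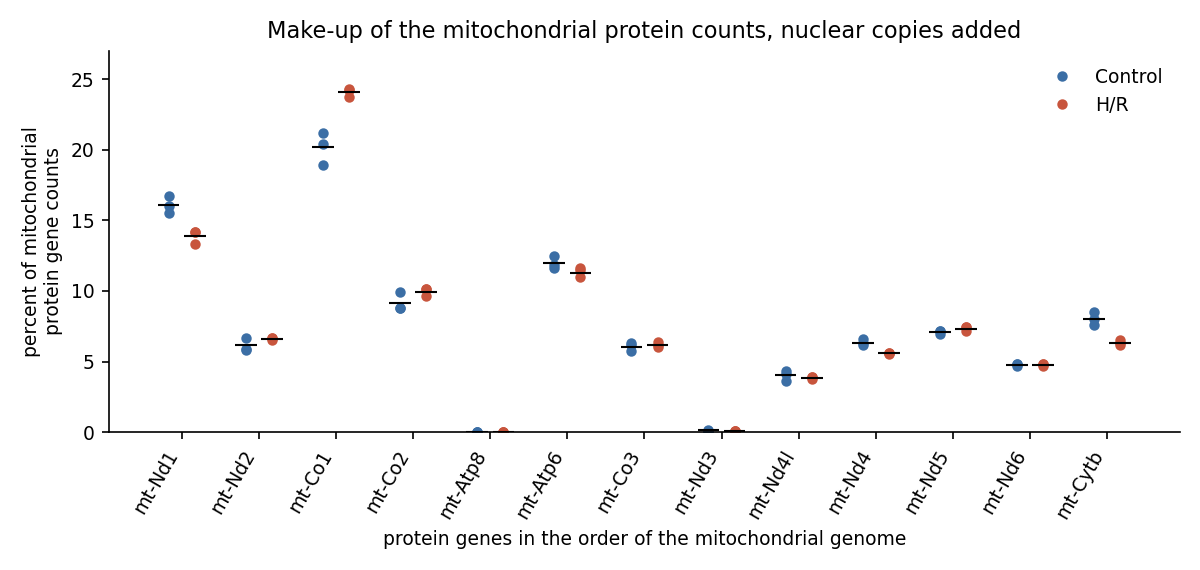
Percent of the summed mitochondrial protein counts, nuclear copies added, that each gene took, in genome order on the x axis, with 1 point per library and a bar at the mean of each group of 3. The H/R points of mt-Co1 lie above those of Control, and the H/R points of mt-Nd1, mt-Nd4 and mt-Cytb lie below.

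The protein genes as a whole took 1.37% ± 0.073 of a library's counts in Control and 1.48% ± 0.04 in H/R, with single libraries at 1.37%, 1.44% and 1.30% against 1.47%, 1.46% and 1.53%. The ratio of the means was 1.08. With copies added the shares were 1.98% ± 0.09 and 2.17% ± 0.067, a ratio of 1.10. In both forms the groups were apart by a small margin. Divided by the TMM-scaled library size the ratio was 1.16, because TMM factors were 1.023 to 1.055 in Control and 0.9579 to 0.9746 in H/R.

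The rRNA genes were read apart. mt-Rnr1, the RNA of the small ribosomal subunit, had 2329, 1063 and 1147 counts in Control and 1502, 1414 and 1851 in H/R. mt-Rnr2, the RNA of the large subunit, had 3133, 2171 and 2097 in Control and 2906, 2608 and 3468 in H/R. Control replicate 1 was the highest Control library in both and fell among or above the H/R libraries, whereas the other Control libraries lay below all H/R libraries. Neither gene passed, with log2 fold changes of 0.21 (SE 0.37, adjusted p = 0.663) and 0.42 (SE 0.20, adjusted p = 0.144) in edgeR, where an unadjusted p under 0.05 gave 0 genes (1 in DESeq2, 0 in limma-trend). mt-Rnr2 passed as higher without robust dispersion, at 0.42 (adjusted p = 0.00115). Without Control replicate 1 both passed as higher, mt-Rnr1 at 0.65 (adjusted p = 5.37e-09) and mt-Rnr2 at 0.62 (adjusted p = 1.36e-06).

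Control replicate 1 also held 131335 counts on Rn18s-rs5, a row of cytosolic 18S rRNA, against 28347 to 43775 in the other libraries. Beside the hepatocyte markers named above, this library thus stood apart in Rn18s-rs5 and mt-Rnr1, while its mt-Rnr2 counts lay within the range of the H/R libraries. The part of this in the rRNA result was not tested beyond leaving the library out. Both rRNAs took 0.0185% ± 0.0056 of the counts in Control and 0.0219% ± 0.0024 in H/R, and their levels per length (72.69 ± 15.6 and 90.32 ± 10.1 RPKM for mt-Rnr2) were far below that of mt-Nd1, the mRNA that lies next to them downstream.

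The tRNA genes had few counts, and their rows are 59 to 75 bases long. These rows are shorter than a full read of the study's sequencing, so such a read also lies on neighbouring sequence. Differences in these rows therefore cannot be assigned to mature tRNAs rather than to precursors or neighbouring transcripts. Of 21, 17 entered the test, and the others were mt-Tf, mt-Tv, mt-Td and mt-Tg. Of the 17, 4 rose, 1 fell and 12 did not pass, and their median log2 fold change was 0.13. As genes with few counts could enter the test only where some libraries had enough of them, these counts describe the tested genes alone. The 4 that rose make 23.5% of the tested tRNA genes, beside 31.0% of all genes that rose. The 1 that fell stands beside 31.8% of all genes that fell. With 17 genes these shares are rough.

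The most counts fell on mt-Tl1 and mt-Tm, the tRNAs for leucine and methionine that directly precede mt-Nd1 and mt-Nd2 with no base between them. The tRNA gene and the first 12 bases of the mRNA gene are shown for both, with the first codon in capitals, as reads across this junction belong to either row.
mt-Tl1 and mt-Nd1 (MT:2676-2762, plus strand): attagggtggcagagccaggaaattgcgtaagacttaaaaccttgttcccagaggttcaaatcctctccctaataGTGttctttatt
mt-Tm and mt-Nd2 (MT:3845-3925, plus strand): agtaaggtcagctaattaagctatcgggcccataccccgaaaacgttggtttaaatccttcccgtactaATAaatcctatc

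mt-Tl1 had normalised counts of 676.1, 686.6 and 522.5 in Control and 802.4, 871.4 and 855.4 in H/R, with the groups apart (log2 fold change 0.42, SE 0.083, adjusted p = 0.000275, edgeR). mt-Tm had 826.6, 803.7 and 480.1 in Control and 629.0, 676.2 and 596.6 in H/R, with Control replicate 3 below and the other Control libraries above H/R (-0.15, SE 0.25). It passed as lower without Control replicate 3, at -0.36 (adjusted p = 1.34e-05). The folds of mt-Tl1 and mt-Tm thus had unlike signs, although that of mt-Tm was smaller than its SE. mt-Nd1 behind mt-Tl1 was at 0.03 and mt-Nd2 behind mt-Tm at 0.34. Whether the folds of a tRNA row and its neighbour differed was not tested.

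The other tRNA genes that rose were mt-Tn (asparagine, 0.68, SE 0.22), mt-Ty (tyrosine, 0.31, SE 0.093) and mt-Tl2 (the second leucine tRNA, 0.93, SE 0.26). mt-Tl2, which directly precedes mt-Nd5, had normalised counts of 22.72, 27.31 and 15.06 in Control and 45.24, 34.51 and 43.97 in H/R, with the groups apart (adjusted p = 0.00226, edgeR). mt-Ty, which lies before mt-Co1 on the other strand, had 319.1, 291.6 and 249.5 in Control and 336.0, 336.5 and 395.7 in H/R (adjusted p = 0.00389, edgeR). The groups were apart here too, and the call was lost in limma-trend on log2(RPKM + 1), at 0.21 with an adjusted p of 0.0984. mt-Tn lost its call without H6R2 replicate 1, at 0.51 (adjusted p = 0.0761, edgeR).

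The 1 tRNA gene that fell was mt-Tq, for glutamine, with normalised counts of 55.87, 44.86 and 31.07 in Control and 25.85, 25.88 and 29.98 in H/R (log2 fold change -0.68, SE 0.24, adjusted p = 0.0153, edgeR). The groups were apart, and the call was lost without Control replicate 1, at -0.47 (adjusted p = 0.135), and in DESeq2, at -0.68 (adjusted p = 0.053). Control replicate 1 stood well above all other libraries for mt-Th (histidine) with 100, 24 and 15 counts in Control and 14, 12 and 22 in H/R, mt-Ts2 (serine) with 48, 15 and 8 against 10, 4 and 10, and mt-Tr (arginine) with 43, 12 and 8 against 9, 16 and 20.

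None of these 3 passed in the edgeR fit. The log2 fold change of mt-Th was -1.39 (SE 0.96) and became -0.16 without Control replicate 1, that of mt-Ts2 was -1.41 (SE 0.78) and became -0.39, and that of mt-Tr was -0.35 (SE 0.65) and became 0.71. mt-Ts2 passed as lower in DESeq2, at -1.42 (adjusted p = 0.0289), which makes it the 1 tRNA gene called at 2-fold there, while edgeR called 0. In edgeR it passed with no filter on low counts (-1.41, adjusted p = 0.000886), without robust dispersion (-1.41, adjusted p = 0.0267), with a replicate block (-1.32, adjusted p = 0.00817) and without Control replicate 3 (-1.83, adjusted p = 0.00144). mt-Th passed as lower without robust dispersion, at -1.39 (adjusted p = 0.0215). All of these fits kept Control replicate 1. mt-Tc (cysteine) was at 0.25 (SE 0.12) and passed as higher without Control replicate 1, at 0.42 (adjusted p = 0.00341), without H6R2 replicate 1, at 0.32 (adjusted p = 0.0374), and with no filter, at 0.25 (adjusted p = 0.0427). The other tested tRNAs, mt-Ti, mt-Tw, mt-Ta, mt-Ts1, mt-Te, mt-Tt and mt-Tp, had log2 fold changes from -0.24 (mt-Ti) to 0.59 (mt-Ta) and did not pass.

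Of the 4 untested tRNA genes, mt-Tv (valine) had 9, 7 and 5 counts in Control and 8, 10 and 15 in H/R, mt-Td (aspartate) had 0, 1 and 2 against 3, 3 and 7, and mt-Tf (phenylalanine) had 4, 1 and 2 against 1, 0 and 2. mt-Tg (glycine) had 3 counts in Control replicate 1 and 0 in every other library. No fold is given at these counts.

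The nuclear genes that act on mitochondrial DNA and RNA, in lists fixed with earlier results known, mostly stood lower in H/R where they passed the test. Of 143 tested, 23 rose (16.1%) and 71 fell (49.7%), beside 31.0% and 31.8% of all genes, with a median log2 fold change of -0.15. These 143 include 8 nuclear regulators of mitochondrial biogenesis, described below. They gave 5 of the 23 that rose and none of those that fell. Under library totals 11 rose and 87 fell, and under upper quartile scaling 13 rose and 86 fell. Of the 10 transcription genes, 1 rose and 4 fell. Polrmt, the mitochondrial RNA polymerase, had normalised counts of 504.7, 460.4 and 496.1 in Control and 351.1, 381.8 and 334.8 in H/R (log2 fold change -0.45, SE 0.077). Tfam, which packs mitochondrial DNA and activates its promoters, had 983.8, 1019 and 960.3 in Control and 807.8, 881.1 and 821.4 in H/R (-0.24, SE 0.056). The groups of both genes were apart.

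Others of the transcription list were Tfb1m, an rRNA methyltransferase, which was at -0.44 (SE 0.15) and lost its call without Control replicate 2, at -0.35 (adjusted p = 0.0759, edgeR), and in DESeq2 (adjusted p = 0.0504), and Mterf1a, a termination factor, which rose by 0.65 on the log2 scale (SE 0.19). Of 12 genes of DNA maintenance 8 fell and 1 rose. The single-strand DNA binding protein Ssbp1 fell by 0.70 (SE 0.052) and the nuclease Mgme1 by 0.37 (SE 0.069). The ribonucleotide reductase subunit Rrm2b was at 0.19 (SE 0.069), a call lost without Control replicate 3, at 0.14 (adjusted p = 0.119), and without H6R2 replicate 1 (0.16, adjusted p = 0.0832) or 2 (0.18, adjusted p = 0.0577). It was also lost under library totals (0.08, adjusted p = 0.298), upper quartile scaling (0.12, adjusted p = 0.136) and in both limma fits.

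Of the 22 genes of RNA processing and stability, 11 fell and 5 rose. Lrpprc, which binds and stabilises mitochondrial mRNAs, had normalised counts of 2209, 2198 and 2177 in Control and 1567, 1514 and 1577 in H/R (log2 fold change -0.50, SE 0.045). Its partner Slirp had 1983, 1912 and 2062 in Control and 2184, 2144 and 2133 in H/R, so the groups were apart in the other direction (0.12, SE 0.045, adjusted p = 0.0242, edgeR). The call of Slirp was lost under library totals, at 0.01, under upper quartile scaling, at 0.05, in both limma fits, and without each of 4 libraries, with adjusted p-values from 0.0523 without Control replicate 1 to 0.108 without Control replicate 2, and 0.0824 and 0.0597 without H6R2 replicates 1 and 2. The RNA-binding Fastkd1 fell by 1.06 (SE 0.13) and Fastkd2 by 0.68 (SE 0.091). Trmt10c, a subunit of the enzyme that cuts tRNAs at their front end, rose by 0.72 (SE 0.078), and Mtpap, the mitochondrial poly(A) polymerase, by 0.41 (SE 0.074).

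Of the 13 translation factors 7 fell and 1 rose, with Mtrf1, a release factor, falling by 1.02 (SE 0.19), the initiation factor Mtif2 by 0.67 (SE 0.066), and the ribosome recycling factor Mrrf rising by 0.29 (SE 0.049). The 78 mitochondrial ribosomal protein genes were the largest list, with 41 lower and 10 higher. Mrpl41 fell by 1.38 (SE 0.056) and Mrpl18 by 0.88 (SE 0.048), and Mrpl24 rose by 0.44 (SE 0.077) and Mrpl9 by 0.41 (SE 0.058). The nuclear regulators of mitochondrial biogenesis, also counted in the 143, went the other way. Of these, 5 of 8 were higher (62.5%) and none lower, beside 31.0% and 31.8% of all genes. Of the 5, Nrf1 and Gabpb1 overlapped between the groups when scaled by library total. Nrf1 had 4.769 to 5.242 RPKM in Control and 5.211 to 5.278 in H/R. Gabpb1 had 3.063 to 3.582 in Control and 3.463 to 3.667 in H/R. Ppargc1a, a coactivator known to induce mitochondrial genes, had normalised counts of 35.03, 35.11 and 32.01 in Control and 99.09, 103.5 and 92.94 in H/R (log2 fold change 1.53, SE 0.18), and the transcription factor Yy1 rose by 0.47 (SE 0.043). Both genes had the groups apart, Ppargc1a at low counts.

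**Figure D5:**
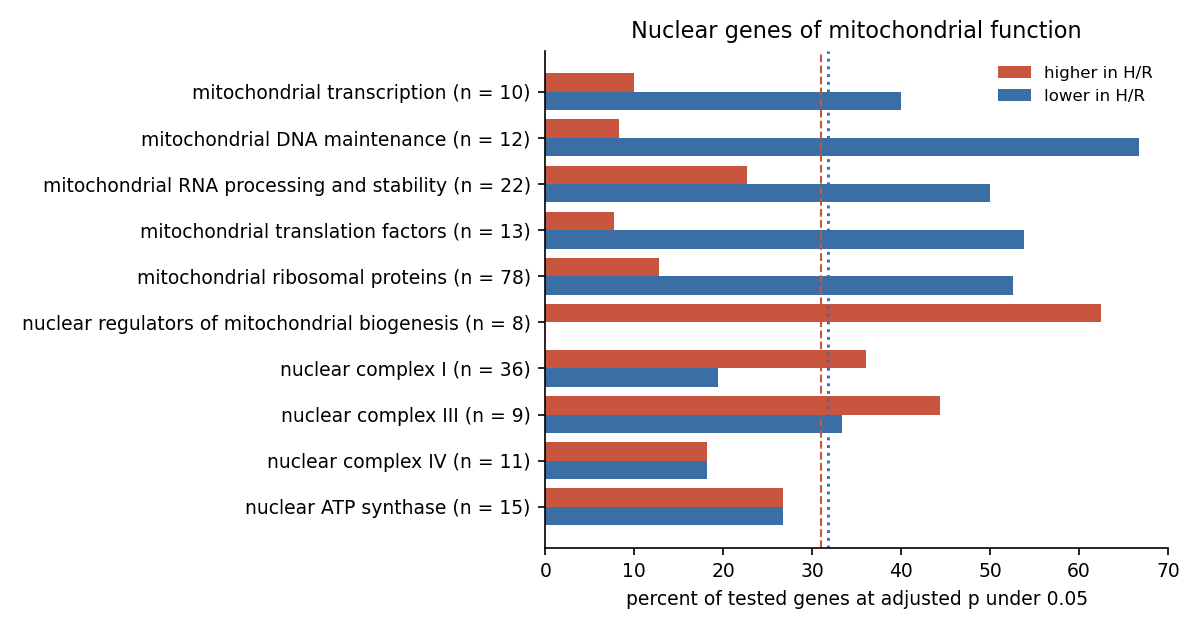
Percent of the tested genes of each nuclear list that were higher or lower in H/R at an adjusted p under 0.05, with bars starting at 0 and the number of tested genes in brackets. The dashed line marks the 31.0% of all genes that were higher and the dotted line the 31.8% that were lower, and the bars of the 5 gene expression lists exceed the dotted line for lower and stay under the dashed line for higher.

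The nuclear partners of the mitochondrial subunits were less one-sided. Of 71 nuclear genes of oxidative phosphorylation, 23 rose (32.4%) and 16 fell (22.5%), beside 31.0% and 31.8% of all genes. The share that rose was thus near the background, and the median log2 fold change was -0.02. The same shares of all genes stand beside the counts per complex given below. Under library totals 10 rose and 31 fell, and under upper quartile scaling 12 rose and 27 fell, so which direction prevailed depended on the scaling. All genes shifted the same way, with 23.9% higher and 39.1% lower under library totals and 26.3% and 36.8% under upper quartile scaling. For complex I, 13 of 36 rose and 7 fell, with Ndufv3 at 0.62 (SE 0.051) and Ndufs4 at 0.30 (SE 0.048) among the higher and Ndufa5 at -0.81 (SE 0.054) and Ndufb7 at -0.50 (SE 0.051) among the lower. For complex III, 4 of 9 rose and 3 fell, with Uqcrc2 at 0.35 (SE 0.057) and Uqcr10 at -0.35 (SE 0.079), beside mt-Cytb at -0.11.

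For complex IV, 2 of 11 nuclear genes rose and 2 fell, and all 4 folds were small, from -0.32 (SE 0.061) for Ndufa4 to 0.18 (SE 0.062) for Cox8a, beside mt-Co1 at 0.50. The call of Cox8a was lost without Control replicate 2 (0.13, adjusted p = 0.0791) and without H6R2 replicate 3 (0.12, adjusted p = 0.117). Under library totals it was at 0.08 (adjusted p = 0.301) and Cox5b, the other gene that rose, at 0.04 (adjusted p = 0.388), and both calls were also lost under upper quartile scaling and in both limma fits. For ATP synthase, 4 of 15 rose and 4 fell, with Atp5g2 at 0.31 (SE 0.058), Atp5b at 0.29 (SE 0.046), Atp5j at -0.61 (SE 0.043) and Atp5k at -0.49 (SE 0.081), beside mt-Atp6 with copies at 0.17. No nuclear gene of these 4 complexes reached 2-fold at an adjusted p under 0.05.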

How the data were processed

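The study extracted total RNA with TRIzol, prepared stranded mRNA libraries and sequenced them with paired ends, and its methods print the aligner as STRA, with GRCm38 as the reference. The submitters' processing notes list Trimmomatic 0.36, featureCounts, Subread 1.5.1 and edgeR 3.12.1. The counts deposited by the authors were whole numbers per gene without normalization, and the deposited RPKM equal the count scaled to the listed gene length and the library total, to within a relative error of 1.13e-06. How reads with several matches, overlapping genes and strand were counted is not given in the sources used here.

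Counts of all genes were fitted in R 4.3.3 with edgeR 4.0.16 (filterByExpr, TMM, estimateDisp, glmQLFit robust, glmQLFTest), 3 H6R2 against 3 Control libraries, with p-values adjusted after Benjamini and Hochberg over all 14020 tested genes, and a gene was called at an adjusted p under 0.05. All adjusted p-values are from this test unless DESeq2 1.42.0 or limma 3.58.1 is named. Folds are H/R over Control on the log2 scale. Nuclear copies were found by placing the mitochondrial genes in GENCODE M21 transcripts, and exact windows of 100 bases were counted on both strands. The counts of copy rows were then added to their gene and the fit repeated on 14010 genes. Sequences are from GENCODE M21, with positions counted from 1. The fit was tested on simulated data with known changes in a small part of the genes, balanced up and down, at a fixed dispersion. That setting did not check the choice of scaling, on which some calls depended.

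The members and lists were chosen with earlier results of these data known. All mitochondrial protein and rRNA genes are named, with tested tRNA genes, the untested ones with most counts (at most 3), Tfam, Polrmt, Lrpprc, Slirp, Ppargc1a, Rn18s-rs5, at most 6 copy rows by counts and at most 2 called genes in each direction per nuclear list by fold. mt-Tg, Nrf1, Gabpb1 and the other copy rows were named after their values were seen. The replicate pairs differed by more than sampling noise, and more so in Control. The chi-square per degree of freedom was 14.3 and 15 for the Control pairs with replicate 1 and 5.24 for the other Control pair. It was 2.12 to 3.19 for the H/R pairs. How this uneven spread bears on the p-values was not tested beyond leaving libraries out. Deviations of libraries with the same replicate number correlated at -0.0269, 0.00476 and -0.0141, so no pairing by number was seen. This cannot show how the samples were collected. Precision for single genes is limited by counts, and no fold is given for genes at 3 counts or fewer in both groups.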

Additional observations from a re-analysis of the deposited data

How the results depend on the processing

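Alternatives were another tool or scaling (DESeq2, upper quartile, library totals alone, TMM factors without mitochondrial rows and Rn18s-rs5), limma-trend on RPKM with a pseudocount of 1 or 0.1, other filters, a fit without robust dispersion, a replicate block, nuclear copies added and leaving out each library. The combinations of copies added with another setting were chosen after seeing the data. The count of protein genes called, and called higher, was 4 and became 7 with nuclear copies added, and it lay between 4 and 6 when a library was left out. Those called higher numbered 5 with no filter and without robust dispersion and 3 under each limma fit. The count of protein genes called lower was 0 and became 2 under library totals and upper quartile scaling, 1 under both limma fits and with no filter, and 0 to 2 without single libraries. With copies added it was 0 and became 1 under library totals and upper quartile scaling and 0 to 2 without single libraries. The count of rRNA genes called, and called higher, was 0 and became 1 without robust dispersion and 0 to 2 without single libraries, 2 only without Control replicate 1. The count of tRNA genes called lower was 1 and became 2 with no filter, 3 without robust dispersion and 0 to 3 without single libraries, 0 only without Control replicate 1.

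With a replicate block 4 protein and 0 rRNA genes were called as before, 2 tRNA genes were called lower in place of 1, and with copies added 6 protein genes were called higher in place of 7. No pairing by number was seen in the deviations of the libraries, and the labels do not say whether the numbers mark shared batches.

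Nuclear genes of mitochondrial gene expression, with the 8 regulators of biogenesis counted among them, were called higher in 23 cases. This count became 11 under library totals, 12 under each limma fit and 13 under upper quartile scaling. Nuclear oxidative phosphorylation genes called higher, 23, became 10, 8 under each limma fit and 12, and those called lower, 16, became 31, 32 under each limma fit and 27, in the same order of settings. The cause was not tested, but the median fold of all genes was -0.12 under library totals, -0.08 under upper quartile scaling and -0.11 or -0.08 in the limma fits. The ratio of the protein share was 1.08 by library total and 1.16 by TMM-scaled size. The ratio of the highest to the lowest protein level per length was 1370 and became 8130 when the length was reduced to windows with no copy, which leaves mt-Nd4l 3 windows. The lowest levels were those of the mt-Co3 row and, with reduced length, of mt-Atp8. These ratios therefore describe rows and cannot be read as ratios of transcript levels.

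Reversed values, given in the order library totals, upper quartile, limma with 0.1 and limma with 1, were -0.0785, -0.0447, -0.0765 and -0.0765 for mt-Nd1, -0.0904, -0.0565, -0.0844 and -0.0785 for mt-Atp6, -0.0467, -0.0128, -0.0471 and -0.0470 for mt-Nd4, and -0.0691, -0.0353, -0.0691 and -0.0688 for mt-Te. For mt-Tt both limma fits reversed the sign, to -0.0082 and -0.00464. With copies added mt-Nd4 was at -0.0476 under library totals and -0.0143 under upper quartile scaling. Leaving out single libraries turned the sign of 10 folds that were not called, with ranges of -0.0387 to 0.059 for mt-Nd1, -0.754 to 0.245 for mt-Ti, -0.11 to 0.23 for mt-Atp8, -0.0636 to 0.111 for mt-Atp6, -0.74 to 0.707 for mt-Tr, -0.0461 to 0.092 for mt-Te, -0.0784 to 0.359 for mt-Tt, -0.136 to 0.11 for mt-Tp, -0.329 to 0.027 for mt-Nd3 with copies and -1.08 to 0.344 for Rn18s-rs5. The called folds of mt-Co1, mt-Nd2 and mt-Nd5 kept their direction and call under all of these settings. Low counts limit the rows of most tRNA genes and that of mt-Co3, whose summed counts of gene and copies stood almost wholly on the copy.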
